A study of Mus musculus with 10 samples.

Results

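Transforming growth factor-β (TGF-β) signalling was followed in mouse regulatory T cells (Tregs) through 10 genes chosen by name, out of 55401 gene IDs in the count table. They are the ligand gene Tgfb1, the receptor genes Tgfbr1, Tgfbr2 and Tgfbr3, the signal transducers Smad2 and Smad3, the inhibitors Smad7, Ski and Skil, and Itgae, the gene of the integrin chain CD103. All 10 passed the filter on low counts that left 12933 genes for testing. Tgfbr3 had the lowest counts of the 10 in every library.

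The study made brain-like Tregs in vitro and sequenced RNA of 5 groups with 2 libraries each, all of the C57BL/6J strain. iB-Tregs (C), (B) and (A) were splenic Tregs grown for 6 days on primary glial cells of neonatal brain, mostly astrocytes, with antibodies to CD3 and CD28 (2 μg/mL each) and IL-2 (20 ng/mL). Nothing else was added for (A), while (B) also received the alarmin IL-33 (20 ng/mL) and serotonin (10 μM), and (C) received these together with the chemokines CCL1 and CCL20 (20 ng/mL each). Ischemia-Tregs were taken from the brain 28 days after a stroke made by occluding the middle cerebral artery of male mice, and SP-Tregs were untreated spleen cells. The methods give mice of 8 to 12 weeks and isolation of Tregs by magnetic beads through human CD2, which Foxp3-hCD2 knock-in mice carry as a surface reporter of Foxp3. They name spleen and lymph nodes as the source of the cultured Tregs, whereas the labels of SP-Tregs give spleen. Whether a group's 2 libraries come from separate animals or cultures is not given in the sources used here, so p-values measure only the spread between libraries, which may be technical.

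TGF-β is secreted in a latent form and, once freed, binds the type II receptor TGFBR2, which recruits and phosphorylates the type I receptor TGFBR1. TGFBR1 phosphorylates SMAD2 and SMAD3, which enter the nucleus with SMAD4. SMAD7 blocks the activated receptor, while SKI and SnoN (encoded by Skil) repress Smad-bound genes, and Smad7 and Skil are themselves induced by the pathway in many cells. In T cells TGF-β supports Foxp3 expression and raises CD103, which binds E-cadherin together with the integrin β7 chain.

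Facts of the whole series bear on every value below. Total counts were 15628261 to 16388161 in the iB-Treg libraries and 5186728 to 6634583 in the Ischemia-Treg and SP-Treg libraries. Mitochondrial ribosomal RNA took 0.121 to 0.169% of the counts of the iB-Treg libraries and 13.6 to 15.7% of those of the Ischemia-Treg and SP-Treg libraries, so that co-culture and kind of library cannot be told apart. In the Ischemia-Treg and SP-Treg columns most counts stand rows below their own gene ID, by 0 rows for Tgfb1, Tgfbr1 and Itgae and by 1 row for the other 7 genes, and were moved back. Over windows of 201 rows around each gene, log2 counts of these libraries then followed those of the iB-Treg libraries with r of 0.870 to 0.946 across genes, against at most 0.202 at any other shift of up to 30 rows. Genes are not independent replicates, so this r is a description.

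The defining Treg gene Foxp3 was present in every group, at 222 ± 3.51 CPM in iB-Tregs (C), 222 ± 3.15 CPM in iB-Tregs (B), 270 ± 1.00 CPM in iB-Tregs (A), 751 ± 27.5 CPM in Ischemia-Tregs and 655 ± 17.1 CPM in SP-Tregs (SD, n = 2 each). CPM here are counts per 1000000 after TMM scaling, which equalises the bulk of genes between libraries. Markers of other cells were also present. The summed level of 18 microglia and macrophage markers was 8691 to 9228 CPM in iB-Tregs (C), 9803 to 9818 CPM in (B), 5118 to 5325 CPM in (A), 476 to 484 CPM in Ischemia-Tregs and 287 to 348 CPM in SP-Tregs. In SP-Tregs 4 of these 18 markers were at 0 (P2ry12, Trem2, Tyrobp and Fcrls), in Ischemia-Tregs 1 (Adgre1), and in the 3 iB-Treg groups none. Ctss alone had 340 CPM in Ischemia-Tregs and 257 CPM in SP-Tregs, most of the sum there. The 18 astrocyte markers summed to 220 to 221, 260 to 263 and 220 to 224 CPM in iB-Tregs (C), (B) and (A). They summed to 76.6 to 104 CPM in Ischemia-Tregs and 66.3 to 73.4 CPM in SP-Tregs, with Gjb6 at 0 in every group. Most of this was Glul, with 158, 185 and 144 CPM in (C), (B) and (A), 70.8 CPM in Ischemia-Tregs and 50.1 CPM in SP-Tregs. The 7 measured Treg markers summed to 3150 to 3167 CPM in iB-Tregs (C), 3150 to 3183 CPM in (B), 3405 to 3530 CPM in (A), 4118 to 4153 CPM in Ischemia-Tregs and 3188 to 3224 CPM in SP-Tregs. B cell and CD8 T cell markers summed to at most 8.30 CPM in an iB-Treg library, 96.2 to 109.9 CPM in Ischemia-Tregs and 53.7 to 56.9 CPM in SP-Tregs. Fibroblast markers came to 338 to 705 CPM over all libraries, nearly all of it Thy1, which T cells express. Endothelial markers came to 56.6 to 84.4 CPM in the iB-Tregs and Ischemia-Tregs and 206 to 230.5 CPM in SP-Tregs, mostly Pecam1, with Cldn5 and Tie1 at 0 in every group, and oligodendrocyte markers to 95.5 to 227 CPM, mostly Mbp, with Sox10 and Mog at 0 in every group. Gfap and Aqp4, defining genes of astrocytes, had at most 3.15 and 2.78 CPM in any library. Microglia and astrocytes also express genes of this pathway, and the part of these cells in the values below was not tested. In such bulk RNA, fewer cells of a type and less RNA per cell cannot be told apart.

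**Figure D1:**
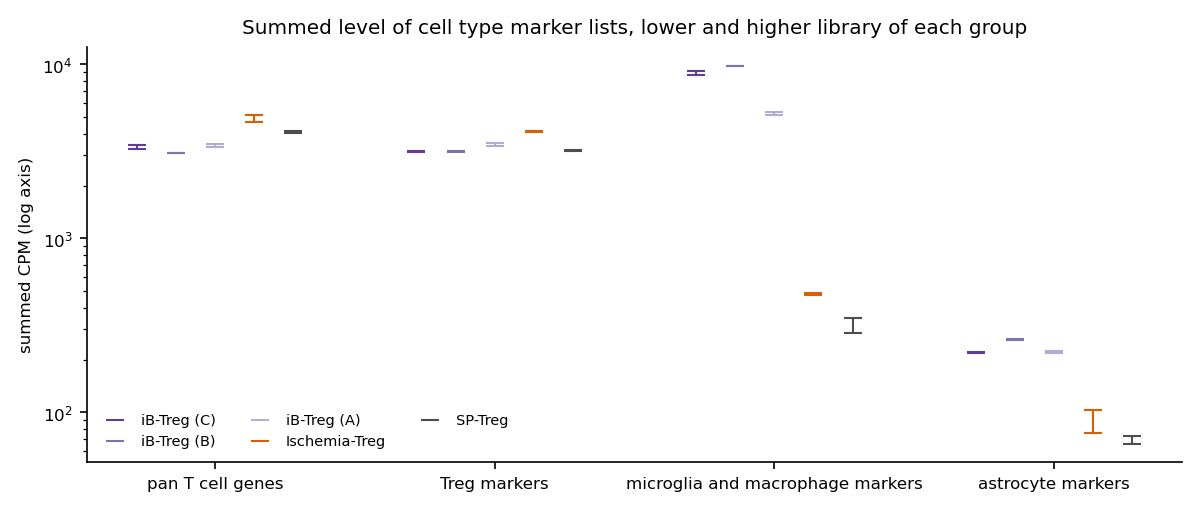
Summed TMM-scaled CPM (log axis) of 4 marker lists in the 5 groups, as the lower and the higher library of each group joined by a line. Microglia and macrophage markers lie between 5118 and 9818 CPM in the iB-Treg groups and at 484 CPM or less in Ischemia-Tregs and SP-Tregs, while the pan T cell genes range from 3088 to 5142 CPM.

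The direction of small changes depended on how the libraries were scaled. A list of 12 pan T cell genes, such as Cd3e and Lck, took a summed 3251 to 3434 CPM in iB-Tregs (C), 3088 to 3115 CPM in (B), 3375 to 3494 CPM in (A), 4682 to 5142 CPM in Ischemia-Tregs and 4038 to 4153 CPM in SP-Tregs. These genes did not move together. With TMM 3 of the 12 were higher and 7 lower in (B) than in SP-Tregs, and Cd3e had 140 CPM in (B) and 470 CPM in SP-Tregs. This scaling is therefore an alternative and not a stable reference. Scaling on these genes instead of TMM put the median over all genes, on the log2 scale, at 0.80 in place of 0.14 for iB-Tregs (B) against Ischemia-Tregs. Against SP-Tregs it moved that median to 0.52 in place of 0.13 for iB-Tregs (B), to 0.43 in place of 0.14 for (C), to 0.40 in place of 0.14 for (A), and to -0.22 in place of 0.00 for Ischemia-Tregs. Among the iB-Tregs the median became 0.13 in place of -0.01 for (B) against (A) and -0.10 in place of 0.00 for (C) against (B). The pan T cell scaling is given beside each gene whose call or sign it changes.

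**Figure D2:**
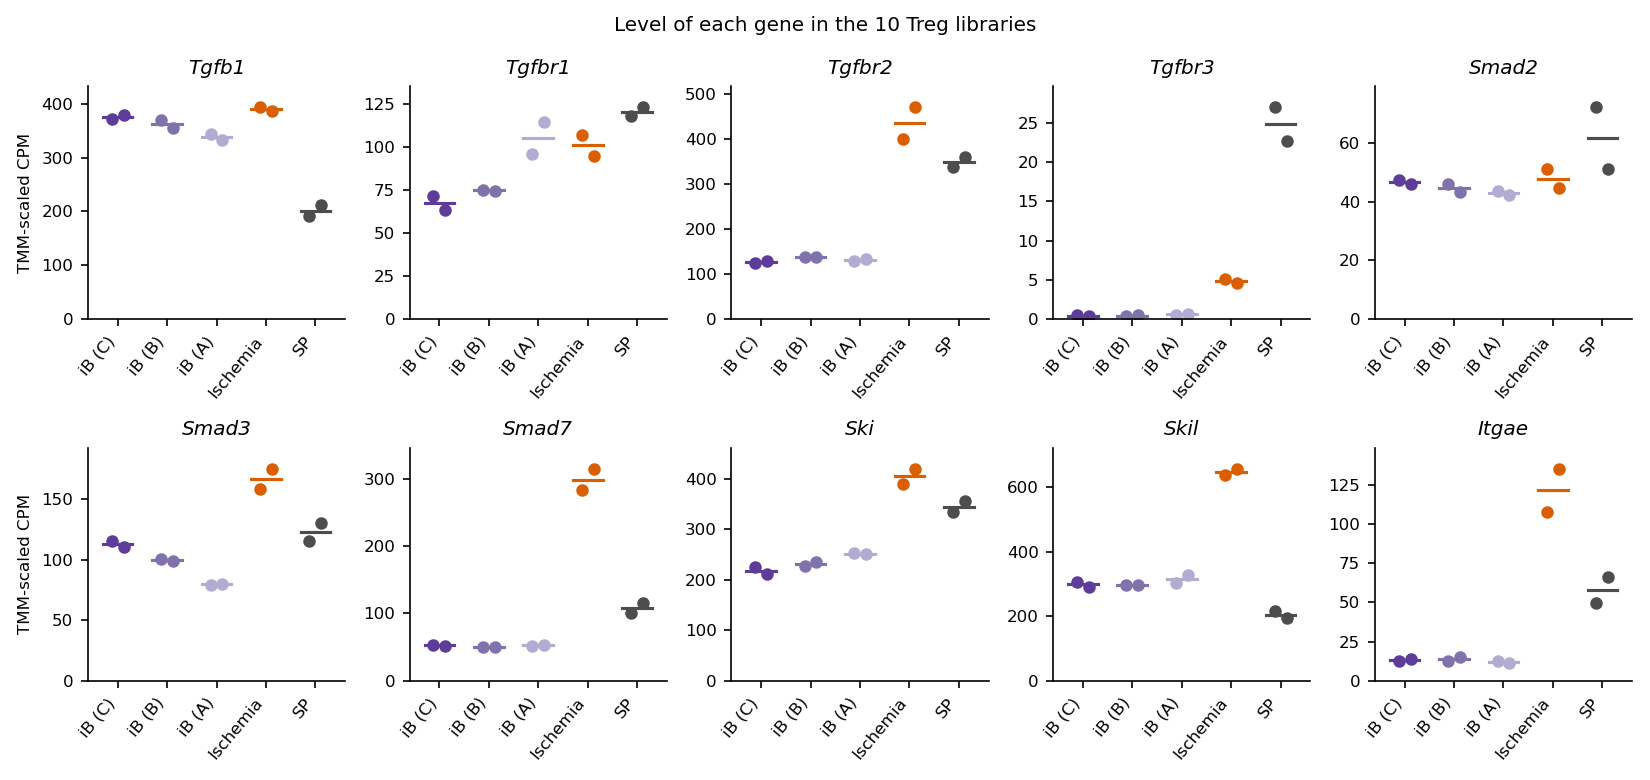
Level of each of the 10 genes as TMM-scaled CPM, with 1 point per library and a line at the mean of the 2 libraries of each group. Tgfbr3 is near 0 in the iB-Tregs and highest in SP-Tregs, while Smad7, Skil and Itgae are highest in Ischemia-Tregs.

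Tgfb1, the gene of the main TGF-β ligand of T cells, lies on chromosome 7 of GRCm38, bases 25687002 to 25705077, with 5042 exonic bases. It had 371 and 380 CPM in iB-Tregs (C), 370 and 355 CPM in (B), 344 and 333 CPM in (A), 394 and 387 CPM in Ischemia-Tregs, and 192 and 211 CPM in SP-Tregs. All 8 libraries of cultured and brain Tregs lay above both SP-Treg libraries. Against SP-Tregs the log2 fold change was 0.90 ± 0.07 (SE) in iB-Tregs (C), 0.85 ± 0.07 in (B), 0.75 ± 0.07 in (A) and 0.96 ± 0.07 in Ischemia-Tregs. These are rises of 1.87-fold, 1.80-fold, 1.68-fold and 1.94-fold, with adjusted p of 3.9e-09, 8.3e-09, 4.1e-08 and 2.1e-08 in edgeR's quasi-likelihood test. Between iB-Tregs (B) and Ischemia-Tregs the log2 difference was -0.11 ± 0.07 (adjusted p = 0.16 in edgeR), and on the pan T cell scaling it was 0.55 (adjusted p = 1.2e-05), higher in iB-Tregs (B).

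Tgfbr1 encodes the type I receptor kinase on chromosome 4, bases 47353222 to 47414931, with 6534 exonic bases. Its level was 71.7 and 63.7 CPM in iB-Tregs (C), 75.2 and 74.7 CPM in (B), 96.1 and 114.7 CPM in (A), 107 and 95.1 CPM in Ischemia-Tregs, and 118 and 123 CPM in SP-Tregs. iB-Tregs (C) and (B) lay below every other library, and the ranges of iB-Tregs (A) and Ischemia-Tregs overlapped. The gene fell against SP-Tregs by 0.83 ± 0.10 on the log2 scale in iB-Tregs (C) (edgeR adjusted p = 1.3e-06) and by 0.68 ± 0.10 in (B) (edgeR adjusted p = 1.1e-05). In iB-Tregs (A) the log2 fold change was -0.19 ± 0.10 (edgeR adjusted p = 0.089), with the opposite sign on the pan T cell scaling, 0.06. Without A-Treg2 this passed as lower (log2 -0.31, edgeR adjusted p = 0.023). In Ischemia-Tregs it was -0.25 ± 0.11 (edgeR adjusted p = 0.089), and -0.50 on the pan T cell scaling, where it passed the test (adjusted p = 0.0063).

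Tgfbr2, the ligand-binding type II receptor gene, lies on the minus strand of chromosome 9, bases 116084293 to 116175360, with 8187 exonic bases. It had 124 and 129 CPM in iB-Tregs (C), 139 and 137 CPM in (B), 128 and 134 CPM in (A), 399 and 470 CPM in Ischemia-Tregs, and 337 and 360 CPM in SP-Tregs. The 6 cultured libraries formed a low range well apart from the 4 others. Against SP-Tregs the fall was 2.75-fold in (C), 2.53-fold in (B) and 2.65-fold in (A), with edgeR adjusted p of 4.4e-11, 1.3e-10 and 7.0e-11. In Ischemia-Tregs Tgfbr2 was 1.25-fold higher than in SP-Tregs (log2 0.32 ± 0.08, edgeR adjusted p = 0.0047), a call that was lost on the pan T cell scaling (log2 0.05, adjusted p = 0.64). Against Ischemia-Tregs, iB-Tregs (B) were 3.15-fold lower (log2 -1.65 ± 0.08, edgeR adjusted p = 1.0e-11).

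Tgfbr3 encodes betaglycan, a co-receptor that presents ligand to TGFBR2 and also binds inhibin. It lies on the minus strand of chromosome 5, bases 107106570 to 107289629, with 6545 exonic bases. Its raw counts were 9 and 7 in iB-Tregs (C), 7 and 10 in (B), 11 and 13 in (A), 23 and 16 in Ischemia-Tregs, and 148 and 87 in SP-Tregs. Scaled, this was 0.464 and 0.374 CPM in (C), 0.359 and 0.517 CPM in (B), 0.535 and 0.658 CPM in (A), 5.12 and 4.62 CPM in Ischemia-Tregs, and 27.0 and 22.7 CPM in SP-Tregs. It was the gene of the 10 with the largest fall against SP-Tregs in each of the 4 other groups. The fall was 58.3-fold in (C), 55.9-fold in (B), 41.3-fold in (A) and 5.10-fold in Ischemia-Tregs, on log2 standard errors of 0.35, 0.34, 0.33 and 0.31, with edgeR adjusted p of 1.4e-10, 1.4e-10, 2.1e-10 and 1.7e-05. The size of these falls in the iB-Tregs rests on 7 to 13 counts a library, and these p-values add little to the counts. Of its exonic bases, 297 are shared with the predicted gene Gm43422, so reads there could have been counted for either or for none.

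Smad2 lies on chromosome 18, bases 76241580 to 76310963, with 8781 exonic bases, and encodes one of the transducers that TGFBR1 phosphorylates. It had 47.3 and 46.1 CPM in iB-Tregs (C), 45.9 and 43.4 CPM in (B), 43.7 and 42.3 CPM in (A), 50.9 and 44.5 CPM in Ischemia-Tregs, and 72.1 and 51.2 CPM in SP-Tregs. The library SP-9 at 72.1 CPM stood apart from the other 9. Smad2 passed the edgeR test as lower in each group against SP-Tregs, by 0.42 ± 0.12 (C), 0.49 ± 0.12 (B), 0.54 ± 0.12 (A) and 0.38 ± 0.14 (Ischemia-Tregs) on the log2 scale, with adjusted p of 0.0059, 0.0022, 0.00094 and 0.045. Without SP-9 none of the 4 calls held, with log2 fold changes of -0.12, -0.19, -0.24 and -0.09 and adjusted p of 0.44, 0.23, 0.13 and 0.69 in edgeR. The call of Ischemia-Tregs was also lost without Ischemia-3 and that of (C) without C-Treg2 (edgeR adjusted p of 0.15 and 0.060). The pan T cell scaling also removed the calls of (C), (B) and (A), and DESeq2 that of Ischemia-Tregs (adjusted p = 0.067).

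Smad3, the second transducer and one that binds DNA directly, lies on the minus strand of chromosome 9, bases 63646767 to 63757994, with 5542 exonic bases. The values were 116 and 110 CPM in iB-Tregs (C), 101 and 98.6 CPM in (B), 79.5 and 80.2 CPM in (A), 159 and 175 CPM in Ischemia-Tregs, and 116 and 131 CPM in SP-Tregs. The 3 iB-Treg groups did not overlap and ran in the order (C), (B), (A), with the higher library of (C) just above the lower one of SP-Tregs. Against SP-Tregs Smad3 was lower in (A) by 0.62 ± 0.08 on the log2 scale (edgeR adjusted p = 4.7e-06), also on the pan T cell scaling (log2 -0.37). For (B) the log2 fold change of -0.30 ± 0.08 (edgeR adjusted p = 0.0042) turned to 0.10 on the pan T cell scaling, and for (C) that of -0.12 ± 0.08 (edgeR adjusted p = 0.21) turned to 0.17, neither then past the test. Without SP-10 the call for (B) was lost (log2 -0.20, edgeR adjusted p = 0.065), as it was without B-Treg2 (log2 -0.27, edgeR adjusted p = 0.0501). Ischemia-Tregs were 1.36-fold above SP-Tregs (log2 0.44 ± 0.09, edgeR adjusted p = 0.00083), a call lost on the pan T cell scaling (log2 0.18, adjusted p = 0.15).

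Smad7, the inhibitory Smad and a feedback gene of the pathway, lies on chromosome 18, bases 75367529 to 75395935, with 4521 exonic bases. It had 52.3 and 52.0 CPM in iB-Tregs (C), 50.5 and 49.3 CPM in (B), 52.0 and 52.7 CPM in (A), 282 and 315 CPM in Ischemia-Tregs, and 100.1 and 116 CPM in SP-Tregs. Its 6 cultured libraries lay within 49.3 to 52.7 CPM, below SP-Tregs, and both brain libraries lay far above. Against SP-Tregs it was 2.06-fold lower in (C), 2.15-fold lower in (B) and 2.05-fold lower in (A), and 2.78-fold higher in Ischemia-Tregs (edgeR adjusted p of 2.1e-08, 1.0e-08, 2.2e-08 and 1.3e-09). The direct comparison of iB-Tregs (B) with Ischemia-Tregs gave a 5.97-fold lower level in (B) (log2 -2.58 ± 0.09, edgeR adjusted p = 9.9e-14), and all of these calls kept their direction and passed on the pan T cell scaling.

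Ski and Skil encode related corepressors of Smad complexes. Ski (chromosome 4, minus strand, bases 155154075 to 155222592, 5562 exonic bases) had 225 and 211 CPM in iB-Tregs (C), 227 and 234 CPM in (B), 252 and 250.5 CPM in (A), 390 and 420 CPM in Ischemia-Tregs, and 334 and 355 CPM in SP-Tregs. It was lower than in SP-Tregs by 1.58-fold in (C), 1.49-fold in (B) and 1.37-fold in (A), with edgeR adjusted p of 1.9e-07, 9.3e-07 and 1.5e-05. The call of (B) was lost on the pan T cell scaling (log2 -0.18, adjusted p = 0.062). In Ischemia-Tregs the log2 rise of 0.23 ± 0.07 (edgeR adjusted p = 0.015) turned to -0.03 on the pan T cell scaling and was not called without Ischemia-3 or without SP-9 (edgeR adjusted p of 0.071 and 0.096).

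Skil (chromosome 3, bases 31095058 to 31122577, 9694 exonic bases), a gene that TGF-β induces in many cells, had 306 and 291 CPM in iB-Tregs (C), 297 and 295 CPM in (B), 303 and 327 CPM in (A), 637 and 657 CPM in Ischemia-Tregs, and 216 and 193 CPM in SP-Tregs. All 8 libraries of cultured and brain Tregs were above SP-Tregs, with the brain libraries highest. The rise over SP-Tregs was 1.45-fold in (C), 1.44-fold in (B), 1.53-fold in (A) and 3.15-fold in Ischemia-Tregs, with edgeR adjusted p of 4.9e-06, 5.9e-06, 9.9e-07 and 3.4e-11. iB-Tregs (B) were 2.18-fold below Ischemia-Tregs (log2 -1.13 ± 0.07, edgeR adjusted p = 3.2e-10).

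Itgae, on chromosome 11, bases 73090583 to 73147446, with 4581 exonic bases, encodes CD103, a marker of T cells that stay in tissues. It had 12.8 and 13.6 CPM in iB-Tregs (C), 12.5 and 14.9 CPM in (B), 12.3 and 11.2 CPM in (A), 108 and 136 CPM in Ischemia-Tregs, and 49.9 and 66.3 CPM in SP-Tregs. Brain libraries were highest, spleen libraries intermediate and cultured libraries lowest, with no overlap between these 3 sets. Itgae was lower than in SP-Tregs by 4.35-fold in (C), 4.19-fold in (B) and 4.87-fold in (A), and higher by 2.11-fold in Ischemia-Tregs, with edgeR adjusted p of 2.9e-09, 3.7e-09, 1.3e-09 and 2.4e-05. Against Ischemia-Tregs it was 8.84-fold lower in iB-Tregs (B) (log2 -3.14 ± 0.15, edgeR adjusted p = 8.4e-12). The kinase gene Haspin lies within Itgae on the opposite strand and shares 0 exonic bases with it. The library kit named in the methods keeps strand, but whether the spleen and brain libraries were made with it is uncertain. Whether the counting used strand is not given in the sources used here.

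**Figure D3:**
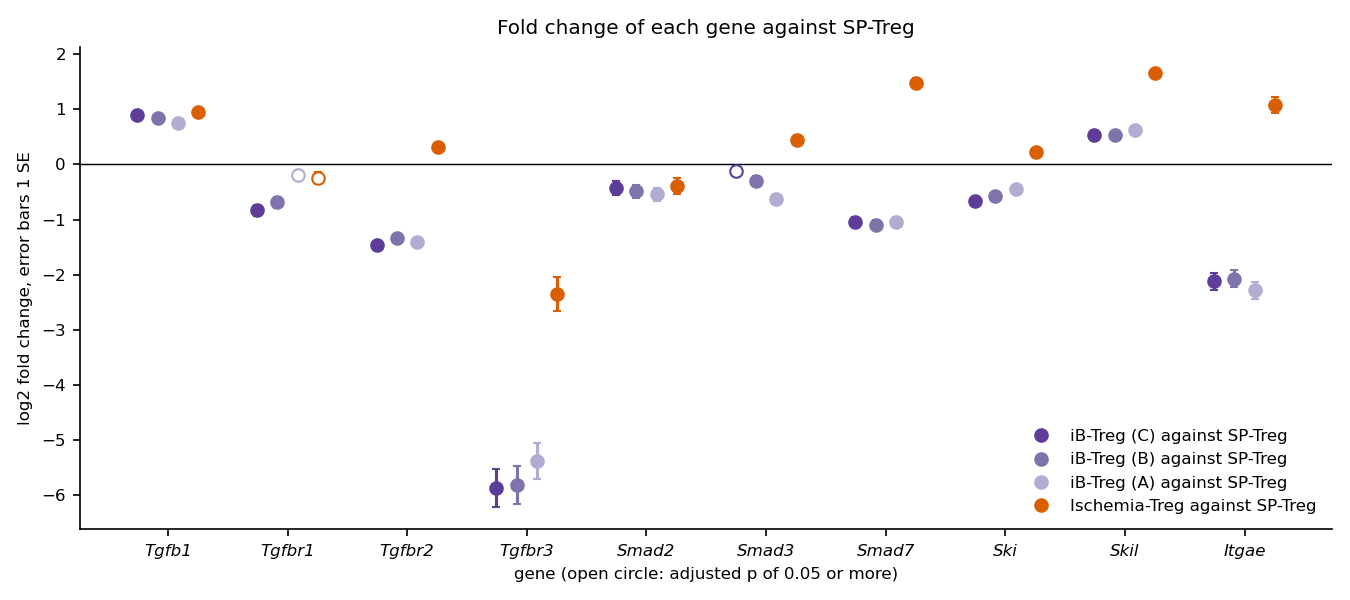
Log2 fold change of each gene against SP-Tregs in iB-Tregs (C), (B), (A) and Ischemia-Tregs, with error bars of 1 SE and open circles where the edgeR adjusted p was 0.05 or more. Smad7 and Itgae lie below 0 in the 3 iB-Treg groups and above 0 in Ischemia-Tregs, Tgfb1 and Skil above 0 in all 4, and the signs of Smad3 in (C) and (B), Tgfbr1 in (A) and Ski in Ischemia-Tregs turn on the pan T cell scaling.

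Counted together, 9 of the 10 genes passed the test in iB-Tregs (C) against SP-Tregs, 2 higher and 7 lower, where 71.9% of all 12933 genes passed (39.4% as higher and 32.4% as lower). In iB-Tregs (B) all 10 passed, 2 higher and 8 lower, beside 72.6% of all genes (39.8% higher and 32.8% lower), and in (A) 9 passed, 2 higher and 7 lower, beside 73% of all genes (40.1% higher and 32.9% lower). In each of these 3 comparisons the 2 higher genes were Tgfb1 and Skil. The median log2 fold change of the 10 genes was -0.74, -0.63 and -0.58 in (C), (B) and (A), against 0.14, 0.13 and 0.14 over all genes. On the pan T cell scaling 8, 7 and 8 of the 10 passed, 2 higher in each and 6, 5 and 6 lower. The medians of the 10 genes were then -0.45, -0.23 and -0.33, against 0.43, 0.52 and 0.40 over all genes. With so large a share of all genes past the test, the number called says little about these genes, and their sizes and signs carry the description. The 3 comparisons share the SP-Treg libraries, as does the next one.

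In Ischemia-Tregs against SP-Tregs 9 of the 10 genes passed, where 38.9% of all genes did (20.5% as higher and 18.3% as lower). The 7 higher genes were Tgfb1, Tgfbr2, Smad3, Smad7, Ski, Skil and Itgae, the 2 lower ones Tgfbr3 and Smad2. The median over the 10 was 0.38 and over all genes 0.00. On the pan T cell scaling 4 were higher (Tgfb1, Smad7, Skil and Itgae) and 3 lower (Tgfbr1, Tgfbr3 and Smad2). The medians were then 0.12 over the 10 and -0.22 over all genes. Over all genes, the calls split into 2657 higher and 2372 lower with TMM, and into 1566 higher and 4021 lower with that scaling.

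iB-Tregs (B) set directly against Ischemia-Tregs had 8 of the 10 genes lower and none higher, where 69.7% of all genes passed in either direction, 38.5% as higher and 31.1% as lower. Tgfb1 and Smad2 were the 2 genes not called, with log2 differences of -0.11 ± 0.07 and -0.10 ± 0.13. On the pan T cell scaling these 2 passed as higher, by 0.55 and 0.55, Tgfbr1, Smad3 and Ski were no longer called (log2 0.22, -0.08 and -0.15), and Tgfbr2, Tgfbr3, Smad7, Skil and Itgae stayed lower, with log2 differences of -0.99, -2.80, -1.92, -0.47 and -2.48. All genes split into 4985 higher and 4027 lower calls with TMM, and into 7957 higher and 1993 lower with that scaling.

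**Figure D4:**
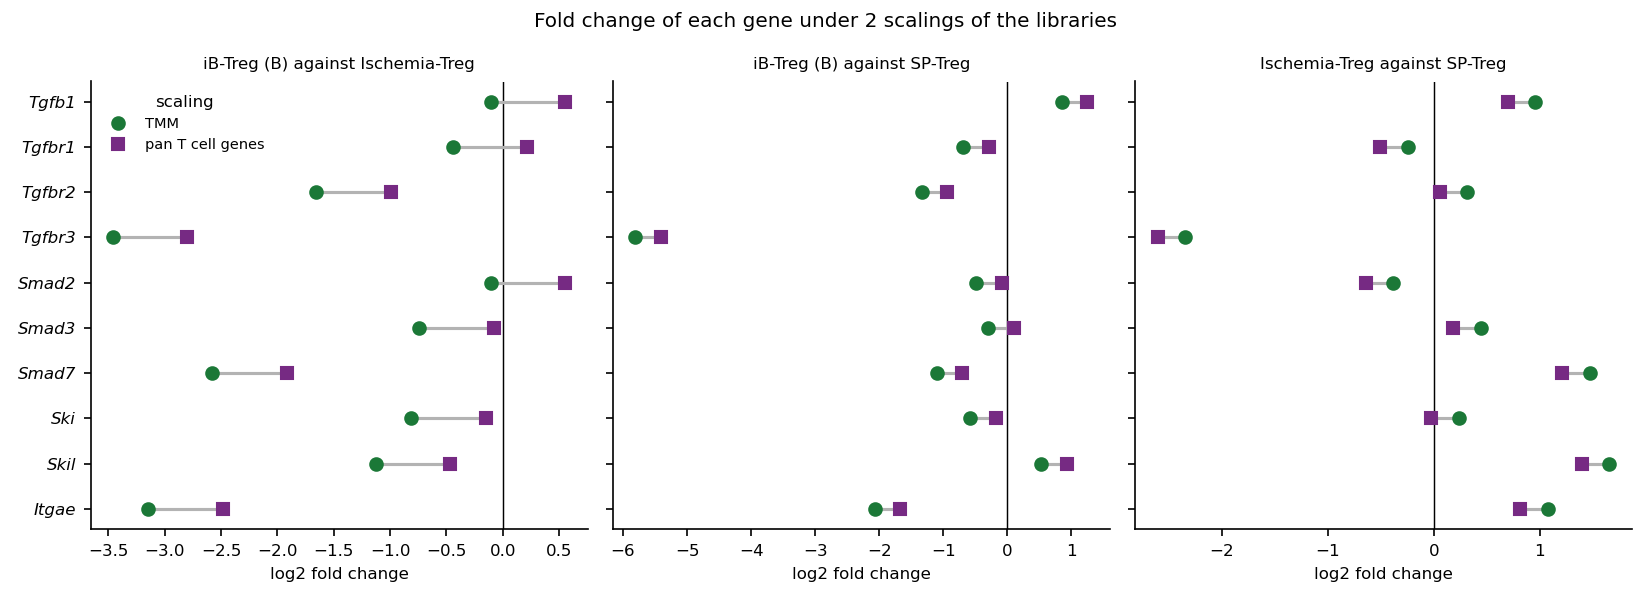
Log2 fold change of each gene with TMM scaling (circles) and with scaling on 12 pan T cell genes (squares) in 3 comparisons. The squares lie to the right of the circles in both comparisons of iB-Tregs (B) and to the left for Ischemia-Tregs against SP-Tregs, and they cross 0 for Tgfb1, Tgfbr1 and Smad2 in the first, Smad3 in the second and Ski in the third comparison.

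IL-33 and serotonin, the difference between iB-Tregs (B) and (A), went with a change in 2 of the 10 genes, where 16.7% of all genes passed (9.49% as higher and 7.18% as lower). Tgfbr1 was 1.41-fold lower in (B) (log2 -0.49 ± 0.09, edgeR adjusted p = 0.00099), a call that missed the threshold on the pan T cell scaling (log2 -0.35, adjusted p = 0.053). Smad3 was 1.25-fold higher in (B) (log2 0.32 ± 0.08, edgeR adjusted p = 0.0067), also on that scaling (log2 0.47, adjusted p = 0.0013), but it was not called when any of the 4 libraries was left out (edgeR adjusted p of 0.057 to 0.11). Tgfb1 passed as higher in (B) on the pan T cell scaling only (log2 0.25, adjusted p = 0.046), against 0.10 ± 0.06 with TMM (edgeR adjusted p = 0.36). The summed microglia and macrophage markers were higher in (B) than in (A) as well, and their part in both differences was not tested. For Tgfb1, Tgfbr2, Smad2, Smad7, Ski, Skil and Itgae the log2 differences lay between -0.13 and 0.21 with SE of 0.06 to 0.16. For Tgfbr3 the difference was -0.44 ± 0.49, on 7 to 13 counts a library.

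Adding CCL1 and CCL20, as in iB-Tregs (C) against (B), left 0 of the 10 genes past the edgeR test, where 0.162% of all genes passed (0.0464% as higher and 0.116% as lower). At an unadjusted p under 0.05 edgeR and DESeq2 each had 1 of the 10, and at an adjusted p under 0.05 DESeq2 called 0. Smad3 was the one nearest to a call, 1.13-fold higher in (C) (log2 0.18 ± 0.08, edgeR adjusted p = 0.67). It passed when the 4 libraries of (C) and (B) were fitted alone (log2 0.18, edgeR adjusted p = 0.018). Tgfbr1 and Tgfbr2 had log2 differences of -0.15 ± 0.09 and -0.12 ± 0.08, and the other 7 genes lay between -0.08 and 0.06.

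Ratios of 2 genes within a library do not depend on the scaling between libraries. They were taken as counts per kilobase of exon. Tgfbr2 stood to Tgfbr1 as 1.499 ± 0.17 in iB-Tregs (C), 1.47 ± 0.005 in (B), 1.00 ± 0.09 in (A), 3.46 ± 0.69 in Ischemia-Tregs and 2.31 ± 0.03 in SP-Tregs (SD, n = 2 each). Every cultured library thus had less type II receptor RNA per type I receptor RNA than any brain or spleen library. With 2 libraries a group an exact permutation test cannot pass the threshold, and none was run on the ratios.

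Smad7 over Smad3 was 0.566 ± 0.02 in iB-Tregs (C), 0.613 ± 0.0002 in (B), 0.803 ± 0.004 in (A), 2.19 ± 0.01 in Ischemia-Tregs and 1.07 ± 0.02 in SP-Tregs. This ratio of inhibitor to transducer differed most between Ischemia-Tregs and the iB-Tregs, and no 2 groups overlapped. Skil over Ski was 0.786 ± 0.007, 0.738 ± 0.02 and 0.719 ± 0.04 in iB-Tregs (C), (B) and (A), 0.918 ± 0.03 in Ischemia-Tregs and 0.342 ± 0.04 in SP-Tregs, so the SP-Treg libraries alone lay below 0.4. Smad3 over Smad2 was 3.83 ± 0.07, 3.54 ± 0.07 and 2.95 ± 0.09 in the iB-Tregs (C), (B) and (A), 5.59 ± 0.92 in Ischemia-Tregs and 3.29 ± 1.07 in SP-Tregs, whose 2 libraries spanned the values of all iB-Tregs.

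**Figure D5:**
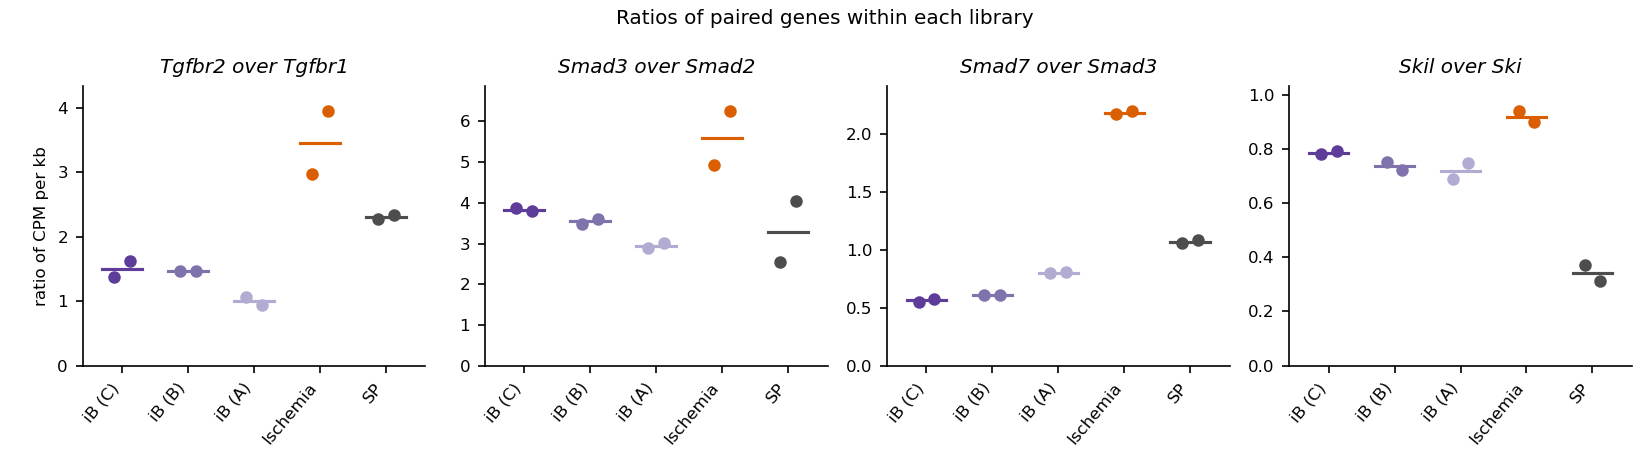
Ratio of 2 genes within each library, in CPM per kilobase of exon, with 1 point per library and a line at the mean of each group. Smad7 over Smad3 is above 2 in Ischemia-Tregs and below 1 in the 6 iB-Treg libraries, and Skil over Ski is lowest in SP-Tregs.

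Per kilobase of exon, the order of levels among the 10 genes differed between groups. In iB-Tregs (B) Tgfb1 led with 71.9 CPM per kb, followed by Ski with 41.4, Skil with 30.6, Smad3 with 18.0, Tgfbr2 with 16.8, Tgfbr1 with 11.5, Smad7 with 11.04, Smad2 with 5.08, Itgae with 2.98 and Tgfbr3 with 0.0669 CPM per kb. In Ischemia-Tregs Tgfb1 with 77.4, Ski with 72.8, Skil with 66.8 and Smad7 with 66.0 CPM per kb were close together, and Tgfbr2 had 53.1, Smad3 30.2, Itgae 26.5, Tgfbr1 15.5, Smad2 5.44 and Tgfbr3 0.744 CPM per kb. In SP-Tregs Ski led with 61.9 CPM per kb, before Tgfbr2 with 42.6, Tgfb1 with 40.0, Smad7 with 23.9, Smad3 with 22.2, Skil with 21.1, Tgfbr1 with 18.5, Itgae with 12.7, Smad2 with 7.02 and Tgfbr3 with 3.80 CPM per kb. Tgfb1 was thus the highest of the 10 in iB-Tregs (B) and the third in SP-Tregs, where it and Tgfbr2 overlapped within their spread (SD of 2.74 and 1.94).

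Promoters of Tgfb1, Tgfbr2 and Smad3 are shown as those of the ligand, the ligand-binding receptor and a transducer, not as genes of 1 pattern. Each is the stretch of 250 bases before the RefSeq start (GRCm38.p6), 5′ to 3′ on the strand of the gene. Capitals mark the Smad box, the letters AGAC or their reverse complement GTCT, to which the DNA-binding domain of SMAD3 and SMAD4 is known to bind. The window is chr7:25686752-25687001 (plus strand) for Tgfb1, chr9:116175364-116175613 (minus strand) for Tgfbr2 and chr9:63757995-63758244 (minus strand) for Smad3.
Tgfb1: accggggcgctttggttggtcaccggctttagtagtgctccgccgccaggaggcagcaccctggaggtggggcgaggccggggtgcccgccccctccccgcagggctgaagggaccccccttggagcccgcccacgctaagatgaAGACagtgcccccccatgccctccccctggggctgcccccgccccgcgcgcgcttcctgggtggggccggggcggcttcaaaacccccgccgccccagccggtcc
Tgfbr2: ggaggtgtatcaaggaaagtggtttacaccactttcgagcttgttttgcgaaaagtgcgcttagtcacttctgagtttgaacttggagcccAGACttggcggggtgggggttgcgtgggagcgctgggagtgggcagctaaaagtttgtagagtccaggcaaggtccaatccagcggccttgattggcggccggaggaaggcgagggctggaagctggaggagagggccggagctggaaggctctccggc
Smad3: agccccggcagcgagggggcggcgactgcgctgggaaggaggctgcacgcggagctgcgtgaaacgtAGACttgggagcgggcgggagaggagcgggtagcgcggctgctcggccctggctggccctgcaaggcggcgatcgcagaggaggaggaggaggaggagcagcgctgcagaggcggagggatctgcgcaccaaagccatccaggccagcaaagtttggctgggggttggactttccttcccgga
Each of the 3 windows holds 1 Smad box. Of 32851 promoter windows of this length in the same table, 82.9% hold at least 1, with a median of 2, so its presence does not set these genes apart. RefSeq windows were also found for Tgfbr1 (2 starts, with 0 and 2 boxes) and Ski (0 boxes), which are not printed. Tgfbr3, Smad2, Smad7, Skil and Itgae are not shown.

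The rest of the pathway was described through lists of genes. Beside Tgfb1, 9 of 14 listed ligand genes of the TGF-β family were tested. In iB-Tregs (C), (B) and (A) against SP-Tregs 5, 6 and 6 of the 9 were higher and 2, 2 and 3 lower. The numbers were the same on the pan T cell scaling. Over all genes 39.4, 39.8 and 40.1% were higher and 32.4, 32.8 and 32.9% lower with TMM. In Ischemia-Tregs 1 was higher, where 20.5% of all genes were higher and 18.3% lower. For a second median, a gene at 0 in 1 of the groups compared was set there to a floor of 3 counts over the group. A gene at 0 in both groups, or whose floor would turn its direction, was left out. The list medians were then 2.32, 2.28 and 1.16 on the log2 scale in (C), (B) and (A) (fitted, 2.57, 3.70 and 4.07). In Ischemia-Tregs the median was -0.05 (fitted, 0.00). The called ligand of Ischemia-Tregs, Bmp7 (log2 0.54 ± 0.15, edgeR adjusted p = 0.0092), was not called on the pan T cell scaling (log2 0.28), where Gdf11 was called as lower (log2 -0.74). Bmp2, a bone morphogenetic protein, had 15.8 ± 2.39 CPM in iB-Tregs (C), 17.1 ± 1.20 CPM in (B), 6.29 ± 0.74 CPM in (A), 0.111 ± 0.16 CPM in Ischemia-Tregs and 0 in SP-Tregs. Tgfb3 had 15.4 ± 0.20, 14.5 ± 1.18 and 12.7 ± 1.08 CPM in the 3 iB-Treg groups, 3.34 ± 0.63 CPM in Ischemia-Tregs and 2.66 ± 0.67 CPM in SP-Tregs. Bmp7 ran the other way, with 6.69 ± 0.02, 6.90 ± 0.70 and 4.61 ± 0.08 CPM in iB-Tregs (C), (B) and (A), 51.2 ± 3.74 CPM in Ischemia-Tregs and 35.4 ± 0.94 CPM in SP-Tregs.

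Genes that hold TGF-β latent or free it counted 11 tested of 14 listed. In Ischemia-Tregs against SP-Tregs 6 were higher and 0 lower with TMM (1 lower on the pan T cell scaling). Over all genes 20.5% were higher and 18.3% lower with TMM. The list median was 1.06 on the log2 scale against 0.00 over all genes. It was 1.20 with genes at 0 in a group treated as for the ligands, some of them left out. Itgav and Itgb8, which encode the integrin chains that free TGF-β from its latent form, were among the 6. Itgb8 had 37.6 ± 3.22 CPM in iB-Tregs (C), 36.9 ± 0.45 CPM in (B), 30.5 ± 3.84 CPM in (A), 121 ± 0.54 CPM in Ischemia-Tregs and 57.7 ± 5.93 CPM in SP-Tregs. Itgav had 138 ± 4.11, 129 ± 2.47 and 97.5 ± 10.7 CPM in the iB-Tregs (C), (B) and (A), 423 ± 8.27 CPM in Ischemia-Tregs and 146 ± 7.99 CPM in SP-Tregs. Furin, the protease that cuts the TGF-β precursor, was higher than in SP-Tregs in all 4 groups, with 308 ± 5.65, 307 ± 1.64 and 215 ± 3.87 CPM in iB-Tregs (C), (B) and (A), 220 ± 47.4 CPM in Ischemia-Tregs and 87.4 ± 8.63 CPM in SP-Tregs.

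In iB-Tregs (B) against SP-Tregs 8 of these 11 genes were higher and 1, Itgb8, lower, and on the pan T cell scaling 9 were higher and 0 lower, with Itgb8 at -0.25 on the log2 scale in place of -0.66 ± 0.12. Over all genes 39.8% were higher and 32.8% lower with TMM. The list median was 1.99 on the log2 scale, or 1.82 with genes at 0 treated as for the ligands, against 0.13 over all genes. Nrros, which tethers latent TGF-β on microglia and other myeloid cells, was one of the higher genes (log2 0.87 ± 0.11 against SP-Tregs and 0.80 ± 0.10 against iB-Tregs (A), edgeR adjusted p of 3.2e-06 and 1.3e-05). In iB-Tregs (A) its log2 fold change against SP-Tregs was 0.07 ± 0.12 (edgeR adjusted p = 0.61) and in Ischemia-Tregs -0.22 ± 0.14 (edgeR adjusted p = 0.23). The summed microglia and macrophage markers were higher than in SP-Tregs in (A), (B), (C) and Ischemia-Tregs. The part of these cells in the level of Nrros was not tested. Lrrc32, which does the same on Tregs, was not analysed here.

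Other receptors and co-receptors of the family counted 12 tested of 14. Against SP-Tregs 7, 6 and 8 were higher in iB-Tregs (C), (B) and (A) and 2 lower in each. Over all genes 39.4, 39.8 and 40.1% were higher and 32.4, 32.8 and 32.9% lower. In Ischemia-Tregs 6 were higher and 2 lower, where 20.5% of all genes were higher and 18.3% lower. The list medians were 1.13, 1.34 and 1.53 on the log2 scale in (C), (B) and (A), against 0.14, 0.13 and 0.14 over all genes. In Ischemia-Tregs the median was 0.58 against 0.00, or 1.01 with genes at 0 treated as for the ligands, some of them left out. Nrp1, a co-receptor found on thymus-derived Tregs, had 103 ± 6.69, 113 ± 2.55 and 161 ± 0.66 CPM in the iB-Tregs (C), (B) and (A), 619 ± 3.00 CPM in Ischemia-Tregs and 325 ± 34.0 CPM in SP-Tregs. Its log2 fold change against SP-Tregs was -1.53 ± 0.08 in iB-Tregs (B) and 0.93 ± 0.08 in Ischemia-Tregs (edgeR adjusted p of 1.8e-11 and 7.5e-08). Bmpr2, a receptor of bone morphogenetic proteins, ran the same way at -0.97 ± 0.14 and 1.09 ± 0.14 (edgeR adjusted p of 8.0e-06 and 9.8e-06). Bmpr1a was higher in both, by 2.15 ± 0.19 and 1.57 ± 0.23 (edgeR adjusted p of 2.5e-08 and 5.4e-05). All 3 kept their signs on the pan T cell scaling.

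Of 5 other Smad genes 4 were tested. Smad1, Smad4 and Smad5 were lower than in SP-Tregs in all 3 iB-Treg groups and in Ischemia-Tregs on both scalings. The fourth, Smad6, was called as higher in the 3 iB-Treg groups on both scalings. Over all genes 39.4, 39.8 and 40.1% were higher and 32.4, 32.8 and 32.9% lower in (C), (B) and (A) with TMM. For Ischemia-Tregs these shares were 20.5% and 18.3%. Smad4, the common partner of SMAD2 and SMAD3, had 61.1 ± 3.83, 56.7 ± 1.15 and 55.4 ± 1.502 CPM in iB-Tregs (C), (B) and (A), 99.01 ± 14.2 CPM in Ischemia-Tregs and 120 ± 7.56 CPM in SP-Tregs. Its log2 differences from SP-Tregs were -1.09 ± 0.10 in (B) and -0.28 ± 0.11 in Ischemia-Tregs (edgeR adjusted p of 2.8e-08 and 0.046). Smad6, the second inhibitory Smad, had 1.31 ± 0.49, 1.36 ± 0.39 and 1.43 ± 0.45 CPM in the iB-Tregs (C), (B) and (A), and was at 0 in Ischemia-Tregs and SP-Tregs.

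Regulators of receptors and Smads, mostly ubiquitin ligases, their opponents and adaptors, counted 18 tested of 19. In iB-Tregs (B) against SP-Tregs 5 were higher and 10 lower with TMM, but 7 and 7 on the pan T cell scaling. In Ischemia-Tregs against SP-Tregs 4 were higher and 5 lower, and 3 and 10 on that scaling. Over all genes with TMM, 39.8% were higher and 32.8% lower in (B), and 20.5% higher and 18.3% lower in Ischemia-Tregs. The list medians were -0.53 and -0.06 on the log2 scale, against 0.13 and 0.00 over all genes. Ppp1r15a, a stress gene whose product brings a phosphatase to the type I receptor, had 182 ± 7.01, 172 ± 0.62 and 149 ± 4.64 CPM in iB-Tregs (C), (B) and (A), 768 ± 43.5 CPM in Ischemia-Tregs and 25.6 ± 6.25 CPM in SP-Tregs. Among 10 tested Smad cofactors 2 were higher and 7 lower in each iB-Treg group against SP-Tregs on both scalings. Over all genes 39.4 to 40.1% were higher and 32.4 to 32.9% lower in these groups with TMM. Ischemia-Tregs had 4 cofactors higher and 1 lower with TMM, and 2 and 4 on the pan T cell scaling. Crebbp, a histone acetyltransferase that Smads recruit, had 49.2 ± 1.75, 54.7 ± 0.83 and 53.0 ± 4.08 CPM in iB-Tregs (C), (B) and (A), 629 ± 18.5 CPM in Ischemia-Tregs and 681 ± 20.2 CPM in SP-Tregs.

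Genes known to respond to TGF-β in T cells counted 17 tested of 18. The list was not split by whether TGF-β raises or lowers a gene. Its counts and medians therefore do not measure the response to TGF-β. In Ischemia-Tregs against SP-Tregs 11 were higher and 3 lower (9 and 4 on the pan T cell scaling). Over all genes 20.5% were higher and 18.3% lower with TMM. The list median was 0.61 on the log2 scale against 0.00 over all genes. In iB-Tregs (C), (B) and (A) 6, 6 and 4 were higher and 11, 10 and 9 lower (8, 7 and 8 lower on the pan T cell scaling). Over all genes 39.4, 39.8 and 40.1% were higher and 32.4, 32.8 and 32.9% lower with TMM. The list medians were -0.95, -0.82 and -0.47 against 0.14, 0.13 and 0.14 over all genes. Set directly against Ischemia-Tregs, iB-Tregs (B) had 1 of the 17 higher, the granzyme gene Gzmb, and 14 lower. On the pan T cell scaling 2 were higher and 12 lower. Over all genes 38.5% were higher and 31.1% lower in this comparison with TMM. Rgs1, a regulator of G protein signals in resident T cells, had 267 ± 10.6, 263 ± 6.86 and 227 ± 6.07 CPM in iB-Tregs (C), (B) and (A), 589 ± 19.03 CPM in Ischemia-Tregs and 196 ± 10.8 CPM in SP-Tregs. S1pr1, the receptor by which T cells leave tissue, had 71.7 ± 1.93, 81.0 ± 0.16 and 109 ± 0.50 CPM in iB-Tregs (C), (B) and (A), 290.3 ± 8.85 CPM in Ischemia-Tregs and 389 ± 19.7 CPM in SP-Tregs.

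TGF-β targets known from other cell types counted 16 tested of 17, and this list was not split by direction either. In Ischemia-Tregs 9 were higher and 2 lower than in SP-Tregs, and in iB-Tregs (C), (B) and (A) 11, 11 and 12 were higher and 1 lower in each, Id3. The shares over all genes were 20.5% (higher) and 18.3% (lower) for Ischemia-Tregs, and for (C), (B) and (A) they were 39.4, 39.8 and 40.1% (higher) and 32.4, 32.8 and 32.9% (lower). The list median was 2.33 on the log2 scale in Ischemia-Tregs, against 0.00 over all genes. It was 2.88 with genes at 0 treated as for the ligands, some of them left out. In (C), (B) and (A) the medians were 2.03, 1.86 and 1.87, against 0.14, 0.13 and 0.14. In iB-Tregs (B) against (A) 4 were higher and 3 lower with TMM, and 5 and 0 on the pan T cell scaling. Over all genes 9.49% were higher and 7.18% lower with TMM. Fn1, the gene of fibronectin, had 4324 ± 281 CPM in iB-Tregs (C), 4743 ± 45.4 CPM in (B), 325 ± 7.84 CPM in (A), 21.8 ± 10.4 CPM in Ischemia-Tregs and 0.365 ± 0.52 CPM in SP-Tregs. Between iB-Tregs (B) and (A) its log2 difference was 3.87 ± 0.12 (edgeR adjusted p = 2.6e-13), and the summed microglia and macrophage markers were 9803 to 9818 CPM in (B) and 5118 to 5325 CPM in (A). The part of other cells in the level of Fn1 was not tested. Junb, Jun and Bhlhe40, transcription factor genes that many other signals also raise, rose in Ischemia-Tregs over SP-Tregs by 4.83 ± 0.09, 4.53 ± 0.10 and 5.61 ± 0.10 on the log2 scale, and in iB-Tregs (B) by 2.07 ± 0.08, 3.59 ± 0.10 and 3.86 ± 0.10.

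Both partners of CD103 were tested. Itgb7, the gene of the β7 chain with which CD103 pairs, had 432 ± 0.08, 402 ± 10.3 and 387 ± 7.81 CPM in iB-Tregs (C), (B) and (A), 649 ± 59.2 CPM in Ischemia-Tregs and 509 ± 65.8 CPM in SP-Tregs. It was lower than in SP-Tregs in iB-Tregs (C), (B) and (A) with TMM, at -0.23 ± 0.08, -0.34 ± 0.08 and -0.39 ± 0.08 on the log2 scale (edgeR adjusted p of 0.017, 0.0015 and 0.00040), but at 0.06, 0.06 and -0.14 on the pan T cell scaling. In Ischemia-Tregs Itgb7 was higher than in SP-Tregs with TMM (log2 0.36 ± 0.08, edgeR adjusted p = 0.003). On the pan T cell scaling it was at 0.10, and 1 of the 2 partners was called there as higher. The log2 fold change of Itgae in (B) was -2.07 ± 0.16 with TMM and -1.67 on that scaling. Cdh1, the gene of E-cadherin, to which CD103 binds, had 19.7 ± 0.45, 17.2 ± 0.95 and 3.13 ± 0.09 CPM in iB-Tregs (C), (B) and (A), 9.82 ± 5.31 CPM in Ischemia-Tregs and 0.613 ± 0.61 CPM in SP-Tregs. It was thus higher than in SP-Tregs where Itgae was lower, in the iB-Tregs, and where Itgae was higher, in Ischemia-Tregs.

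Among all tested genes, the profile most like that of each member over the 10 libraries was sought as the smallest root mean square difference of centred log2 (CPM + 1). For Tgfb1 it was Arpc3, at 0.074, for Tgfbr1 Ptch1, at 0.082, and for Tgfbr2 Dyrk1a, at 0.073. Smad2 was nearest to Bclaf1, at 0.077, Smad3 to Sik3, at 0.080, and Ski to Cyfip2, at 0.035. Skil had Atp2b4 as its nearest gene, at 0.082, and Smad7 had Adora2a, at 0.14, and S100a11, at 0.14. The nearest to Itgae were Il18r1, at 0.16, and Lysmd2, at 0.16, while that of Tgfbr3 was Gm20696, at 0.12. For scale, the profiles of the members themselves departed from their means by a root mean square of 0.21 (Smad2) to 1.64 (Tgfbr3). The libraries share their group and kind of library, so these are descriptions of profiles. No other member was among the 3 genes nearest to any of the 10.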

How the data were processed

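RNA of 10 libraries in 5 groups of 2 was sequenced. The methods name 1 directional poly(A) library kit and do not tell the groups apart. Given the high share of mitochondrial ribosomal RNA in the spleen and brain libraries, whether that kit made them is uncertain. The authors deposited whole-number counts per gene, neither normalized nor pooled. The submitters' processing notes name HISAT2 2.0.1, HTSeq 0.6.1 and mm10, the paper Trim Galore, HISAT2 and featureCounts with GRCm38, and which made the table is not stated. The deposited exonic lengths, used for values per kilobase, equal those of GENCODE vM21 for the 10 genes, which also gave symbols and coordinates.

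The 4 spleen and brain columns hold 172 rows more than there are gene IDs. Their counts were moved up in 6 stretches of the table by fixed numbers of rows, leaving 24994 of 55401 IDs and 83.0 to 91.9% of their counts (94.5 to 94.8% in iB-Tregs), and rows with no ID held 0.0123 to 0.0143% and stayed out. A wrong shift would give the genes of its stretch the counts of other genes in these 4 libraries.

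The test was the quasi-likelihood F test of edgeR 4.0.16 under R 4.3.3 (TMM over library totals, filterByExpr, 1 fit of 10 libraries, 7 comparisons) with Benjamini-Hochberg adjustment over 12933 genes and a threshold of 0.05. Standard errors follow from the fold change and the F value. DESeq2 1.42.0 was an alternative, as were other scalings, no low-count filter, fits of fewer libraries, leaving out single libraries and a block by replicate number. The edgeR test was first run on simulated counts with known changes in a small set of genes. All simulated libraries otherwise shared the means of the reference group, so that run cannot bear on the scaling between kinds of library. Every member is named, and from each list up to 4 tested genes by mean CPM, any cell type marker and, for each member, the 3 genes of nearest profile. Gzmb and Id3 fall outside this rule and were named after their values were seen. Members and lists were chosen with earlier results of these data known.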

Additional observations from a re-analysis of the deposited data

How the results depend on the processing

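Of 70 log2 fold changes (10 genes in 7 comparisons, 47 of them called), scaling on pan T cell genes turned the sign of 14. These became -0.028 for Ski in Ischemia-Tregs, 0.063 for Tgfbr1 in (A), 0.10 for Smad3 in (B) and 0.17 for Smad3 in (C), all against SP-Tregs. In (B) against (A) they were 0.078 for Smad7, 0.022 for Ski and 0.059 for Skil, and in (C) against (B) -0.055 for Tgfb1, -0.042 for Smad2, -0.043 for Smad7 and -0.10 for Skil. In (B) against Ischemia-Tregs they were 0.55 for Tgfb1, 0.22 for Tgfbr1 and 0.55 for Smad2. DESeq2 and median of ratios scaling turned Skil in (C) against (B), to -0.0027 and -0.0026, and each lost 1 call. Library totals over the kept rows and no low-count filter changed no call or sign of the 70.

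Fits without 1 library leave a lone one in its group, which is assumed to vary like the other groups. They turned uncalled values of (C) against (B), where Tgfbr3 spanned -0.29 to 0.22, Skil -0.027 to 0.046 and Itgae -0.18 to 0.081, and Smad2 in (B) against Ischemia-Tregs, which spanned -0.18 to 0.020. The number of the 10 genes called spanned 7 to 9 in Ischemia-Tregs, 8 to 9 in (C), 9 to 10 in (B) and 8 to 10 in (A), all against SP-Tregs. It was 1 in place of 2 for (B) against (A) whichever library was left out, 0 for (C) against (B) and 8 for (B) against Ischemia-Tregs. With only the 4 libraries of (C) and (B) fitted, 1 gene was called in place of 0.

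Over all genes, (B) against (A) called 2155, but 4435 with the 6 iB-Treg libraries over all gene IDs, 4170 with only the 4 libraries compared and 892 to 1170 with 1 library left out. For (C) against (B) the number was 21, and 82 with DESeq2, 130 with no filter, 526 with the 6 libraries over all gene IDs, 849 with only the 4 libraries and 0 to 3 with 1 left out. Ischemia-Tregs against SP-Tregs gave 5029, and 3011 with only those 4 libraries. On the pan T cell scaling higher and lower calls split 6260 to 3098 in place of 5101 to 4196 for (C), 6794 to 2818 in place of 5148 to 4247 for (B) and 6160 to 3259 in place of 5192 to 4255 for (A), all against SP-Tregs, 1789 to 293 in place of 1227 to 928 for (B) against (A), and 1 to 30 in place of 6 to 15 for (C) against (B).

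Replicate numbers did not pair the iB-Treg libraries (r of deviations 0.045 for (A) and (B), -0.060 for (A) and (C), 0.014 for (B) and (C)). With the replicate block 2 of the 10 genes were called in (B) against (A) and 0 in (C) against (B), as without it. That fit holds the 6 iB-Treg libraries alone and called 3914 and 470 genes in all, beside 4435 and 526 for these 6 libraries over all gene IDs with no block. A block chosen after seeing the data, SP-9 with Ischemia-4 and SP-10 with Ischemia-3, follows the share of protein-coding counts (62.5% in both of the first pair, 55.9% in both of the second), although these pairs did not deviate together over genes (r = -0.0094). Fitted on these 4 libraries alone, it called 7 of the 10 genes, without Smad2 and Ski (edgeR adjusted p of 0.15 and 0.11), and 2800 genes in all, beside 7 and 3011 for the same 4 libraries with no block. Tgfbr3 rests on 7 to 13 counts a library in the iB-Tregs, which limits its precision there.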
